A study of Mus musculus with 6 samples.

Results

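The transcripts described here are those of the unfolded protein response and the integrated stress response. They are 37 genes chosen by name, of 55450 genes in the deposited tables. The names matched 38 rows, because a second row named Ddit3 (ENSMUSG00000116429.1) had 0 reads in all 6 libraries. The remaining 37 rows all passed the filter on low counts, which kept 14958 genes. The members fall into 3 arms: 18 genes of endoplasmic reticulum (ER) folding and ER-associated degradation (ERAD), 4 genes for the stress sensors and Xbp1, and 15 genes of the ATF4 arm.

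When unfolded proteins accumulate in the ER, the sensors IRE1, ATF6 and PERK raise the production of chaperones and of ERAD components. IRE1 acts by splicing Xbp1 mRNA, and ATF6 by releasing a transcription factor. PERK and other kinases phosphorylate the translation factor eIF2alpha, which lowers protein synthesis in general while ATF4 is translated, and ATF4 then induces genes of amino acid supply, redox balance and stress signalling. T cells use both programmes when they are activated and begin to secrete cytokines.

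Libraries were made from ribosome-depleted RNA of naive CD4+ T cells of wildtype mice aged 8 to 12 weeks, activated with 0.25 μg/mL anti-CD3ε and 1 μg/mL anti-CD28. All groups received 0.1 ng/mL TGF-β with 20 ng/mL IL-6, were transduced with an MSCV retrovirus at 24 h, and were then held for another 48 h in 0.3 ng/mL TGF-β and 20 ng/mL IL-6, which gave Th17 cells of 72 h. The 3 groups carried the empty vector, ADAR2 WT, or ADAR2 E396A, a form of this RNA deaminase without enzyme activity. Each of 2 mice, called donors A and B, gave 1 library per group, so n = 2 for every group below. The labels mention no selection of transduced cells, so each library may also hold untransduced cells. Values are normalized counts, that is, reads divided by a size factor of the library, and they are given in the order donor A, donor B.

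The libraries held 16496328 to 21897166 reads assigned to genes. Adarb1, which encodes ADAR2, was at 3687 and 3346 in empty-vector cells, 18499 and 19077 in ADAR2 WT cells and 15709 and 14982 in ADAR2 E396A cells. It rose with both constructs (log2 fold changes 2.42 and 2.13, limma adjusted p = 2.21e-06 and 6.48e-06). The 2 constructs differed in it by 0.29 on the log2 scale (standard error 0.07, limma adjusted p = 0.161), with both ADAR2 WT libraries above both ADAR2 E396A libraries. All 10 Th17 markers and all 6 T cell markers were detected in every library. Of the CD8 T cell and natural killer cell markers, Ncr1 was at 0 in all 6, while Cd8b1 was at 112 to 159, Cd8a at 9.41 to 65.5 and Eomes at 7.8 to 21.5. Donors differed within a group: Il17a was at 2447 and 9317 with empty vector. In bulk libraries, fewer cells of a type and less RNA per cell cannot be told apart.

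The first question was how strongly these genes were expressed in Th17 cells carrying only the empty vector. Levels between genes are compared as normalized count per kb of annotated exon. Calr, encoding the lectin chaperone calreticulin, was highest at 8605 and 9934 per kb. Hsp90b1 (GRP94, the HSP90 of the ER) followed at 4948 and 5723 per kb and Hspa5 (BiP, the HSP70 of the ER) at 4224 and 5328 per kb. The ranges of Hsp90b1 and Hspa5 overlapped between donors, whereas both Calr values lay above them.

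Pdia3, a disulfide isomerase that works with the lectin chaperones, was at 3900 and 4179 per kb. Canx, the membrane-bound lectin chaperone calnexin, was at 3584 and 3533 per kb. Atf4 was the highest gene of its arm, at 2338 and 2866 per kb. Its mRNA was therefore abundant in these cells without an ADAR2 construct, although its main control is on translation, which RNA-seq does not measure. The mTORC1 inhibitor gene Ddit4 was next in the ATF4 arm at 2233 and 2067 per kb. Between 795 and 1087 per kb, and apart from 1 value of Atf3 at 682 and 1 of Manf at 769, lay a run of 8 genes (Sdf2l1, Phgdh, Atf3, Slc3a2, Manf, Psat1, Xbp1 and Mthfd2) in which no gene was separated from the next by the spread of the donors.

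The sensors were low beside the chaperones, although above the median of all genes. Eif2ak3 (PERK) was at 287 and 255 per kb, Atf6 at 236 and 215 per kb, and Ern1 (IRE1) at 131 and 120 per kb. Of all 37 members, 34 were above the median of all genes tested, 78.0 per kb, in both empty-vector libraries. The other members were the glutathione-degrading enzyme gene Chac1, the mitochondrial folate enzyme gene Aldh1l2 and the cystine transporter gene Slc7a11, the last at 1.58 and 1.55 per kb.

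**Figure D1:**
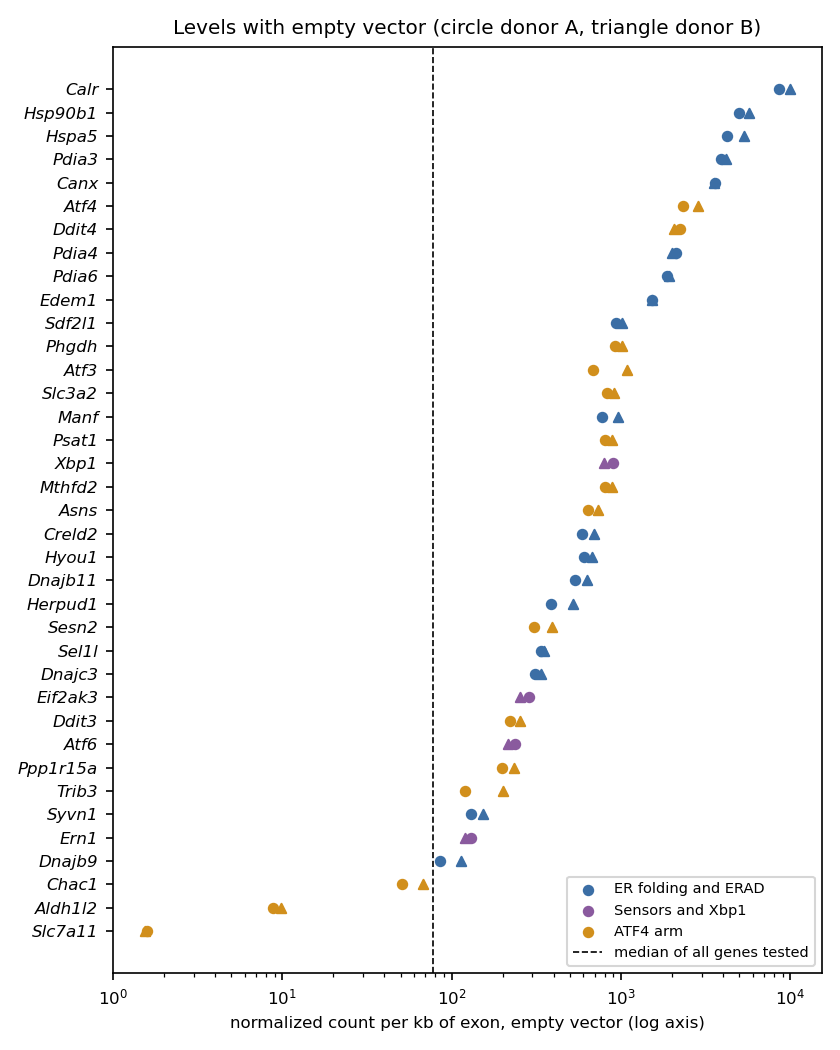
Normalized count per kb of exon (log axis) of the 37 members in the 2 empty-vector libraries, ordered by their mean, with circles for donor A, triangles for donor B and colours for the 3 arms. Folding genes hold the first 5 places, the sensors and Xbp1 lie at 120 to 894 per kb, and Chac1, Aldh1l2 and Slc7a11 lie below the dashed median of all genes tested.

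Promoters were searched for the short sequences through which the response is known to act, because their presence sorts the members independently of expression. The members were chosen as genes of these responses, so the shares below describe the lists and are not a result of these libraries. Members are counted per gene, and all promoters per entry. RefSeq promoters (GRCm38.p6, 250 bases before to 50 bases after the start of each gene) were at hand for 33 of the 37 members. Aldh1l2, Manf, Hyou1 and Atf6 were not matched. The ER stress response element (ERSE), bound by ATF6 with the factor NF-Y, was taken as CCAAT and CCACG with any 9 bases between, on either strand. It was present in 8 of the 16 matched folding and ERAD genes, in none of the 14 matched ATF4-arm genes, and in 39 of all 32851 promoters (0.119%). Hsp90b1 held 2 copies. The elements are shown because their fixed ends, in capitals, recur around unlike spacers. They are written 5′ to 3′ on the strand on which the motif reads:
Hspa5: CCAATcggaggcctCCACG
Hsp90b1: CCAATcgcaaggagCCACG
Hsp90b1: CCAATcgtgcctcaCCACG
Calr: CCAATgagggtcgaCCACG
Canx: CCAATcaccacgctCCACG
Pdia6: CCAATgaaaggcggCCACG
Dnajc3: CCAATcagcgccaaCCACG
Creld2: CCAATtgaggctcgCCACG
Syvn1: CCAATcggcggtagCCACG

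A second form, ERSE-II (ATTGG, any base, CCACG), was found in 2 of the 16 folding and ERAD genes and in 0.0365% of all promoters. Herpud1 carried it 52 bases before its start site and Dnajb11 just after its start site:
Herpud1: ATTGGgCCACG
Dnajb11: ATTGGcCCACG

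The XBP1-type element UPRE (TGACGTGG) was in none of the matched members and in 0.676% of all promoters. A promoter without a match shows only that these letters are not in the window. The CARE sequence (TGATGNAA), read by ATF4 with C/EBP partners, was in 5 of the 14 matched ATF4-arm genes (35.7%), in Herpud1, and in 3.97% of all promoters. Slc7a11 held 2 copies. Each line gives the motif in capitals with 6 bases on either side:
Atf3: acttggTGATGCAAgtgcga
Trib3: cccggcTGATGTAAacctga
Chac1: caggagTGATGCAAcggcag
Asns: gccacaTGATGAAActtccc
Slc7a11: tgtggcTGATGCAAacctgg
Slc7a11: gcatgaTGATGCAAattctc

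The 250 bases before the start site of 4 members are printed to show these elements in place. Hspa5 has an ERSE 65 bases before its start, and Hsp90b1 has copies on both strands at 212 and 107 bases. Edem1, the folding and ERAD gene with a negative estimate below, had no match and a GC content of 76.0%. Atf3 has a CARE on the opposite strand, 110 bases before its start. Sequences are from RefSeq, build GRCm38.p6, in the direction of the gene, with matches in capitals:
Hspa5 (chr2:34771840-34772089, plus strand): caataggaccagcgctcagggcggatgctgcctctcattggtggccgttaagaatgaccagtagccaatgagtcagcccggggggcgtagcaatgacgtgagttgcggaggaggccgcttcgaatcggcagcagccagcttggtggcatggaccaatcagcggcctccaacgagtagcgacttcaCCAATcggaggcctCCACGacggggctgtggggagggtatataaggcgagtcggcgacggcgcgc
Hsp90b1 (chr10:86705445-86705694, minus strand): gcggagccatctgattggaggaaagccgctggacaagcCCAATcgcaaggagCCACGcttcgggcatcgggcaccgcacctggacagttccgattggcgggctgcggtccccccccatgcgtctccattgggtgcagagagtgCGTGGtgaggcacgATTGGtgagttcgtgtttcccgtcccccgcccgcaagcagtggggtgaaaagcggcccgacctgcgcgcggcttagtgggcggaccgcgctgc
Edem1 (chr6:108828391-108828640, plus strand): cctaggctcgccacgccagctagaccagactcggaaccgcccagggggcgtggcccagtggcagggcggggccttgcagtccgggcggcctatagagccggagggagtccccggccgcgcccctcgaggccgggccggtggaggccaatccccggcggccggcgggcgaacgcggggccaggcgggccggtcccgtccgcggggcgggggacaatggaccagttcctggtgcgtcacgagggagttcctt
Atf3 (chr1:191183334-191183583, minus strand): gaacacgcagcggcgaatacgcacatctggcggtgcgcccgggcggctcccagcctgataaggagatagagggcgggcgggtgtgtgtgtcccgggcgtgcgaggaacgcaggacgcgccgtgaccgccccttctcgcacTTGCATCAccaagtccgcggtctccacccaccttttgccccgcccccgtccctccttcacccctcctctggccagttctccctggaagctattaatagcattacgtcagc

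ADAR2 WT was compared with empty vector to see which transcripts differed with the active enzyme. Among the folding and ERAD genes, 17 of 18 had a positive log2 fold change and 1, Edem1, a negative one. The median was 0.26 on the log2 scale, a 1.197-fold difference, with 0.35 in donor A and 0.18 in donor B. The median over all genes tested was -0.00, with 49.6% of them positive. None of the 18 passed the test (limma, Benjamini-Hochberg adjusted p below 0.05 over all genes; 0.816% of genes passed), the adjusted p ranging from 0.0787 to 0.720. At an unadjusted p below 0.05, 13 of the 18 were higher, against 6.99% of all genes. Both ADAR2 WT libraries lay above both empty-vector libraries for 15 of them, against 18.7% of all genes. Members and lists were chosen with earlier results of these data known. These shares and those below therefore describe the lists and are not an independent test.

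Hspa5, the master chaperone of the ER lumen, was at 17862 and 22532 in empty-vector cells, 24998 and 26429 in ADAR2 WT cells and 19975 and 20309 in ADAR2 E396A cells. Both ADAR2 WT values were the highest, and the empty-vector value of donor A was the lowest. The log2 fold change with ADAR2 WT was 0.36 (standard error 0.08, limma adjusted p = 0.108).

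Hsp90b1 was at 19952 and 23077 in empty-vector cells, 27261 and 27378 in ADAR2 WT cells and 22101 and 22890.3 in ADAR2 E396A cells. Its log2 fold change with ADAR2 WT, 0.35 (standard error 0.07, limma adjusted p = 0.0787), had the lowest adjusted p of all members. The ADAR2 WT libraries were nearly equal to each other and stood clear of the other 4.

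Creld2, an ER protein induced by folding stress, had the largest fold change of its arm. It was at 805 and 945 in empty-vector cells, 1149 and 1172 in ADAR2 WT cells and 868 and 831 in ADAR2 E396A cells. The difference of ADAR2 WT from empty vector was 0.41 (standard error 0.09, limma adjusted p = 0.101) on the log2 scale, with no overlap between these groups.

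Manf, a small factor that binds BiP and is also secreted, was at 2712 and 3383 in empty-vector cells, 3935 and 4014 in ADAR2 WT cells and 3274 and 3315 in ADAR2 E396A cells. Its log2 fold change with ADAR2 WT was 0.39 (standard error 0.09, limma adjusted p = 0.0945). Donor A's empty-vector library again held the lowest value, and the ADAR2 WT libraries did not overlap the rest.

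The lectin chaperones were also highest with ADAR2 WT. Calr was at 24782 and 28609 in empty-vector cells, 32036 and 32072 in ADAR2 WT cells and 25559 and 25777 in ADAR2 E396A cells, a log2 fold change with ADAR2 WT of 0.27 (standard error 0.07, limma adjusted p = 0.155). Canx was at 16821 and 16581 (empty vector), 20417 and 18892 (ADAR2 WT) and 17591 and 16471 (ADAR2 E396A), and its ADAR2 WT log2 fold change was 0.23 (standard error 0.06, limma adjusted p = 0.148). For both genes the ADAR2 WT libraries were above the other 4.

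Of the disulfide isomerases, Pdia6 was at 6967 and 7186 in empty-vector cells, 9469 and 8254 in ADAR2 WT cells and 7790.3 and 6572 in ADAR2 E396A cells, a log2 fold change with ADAR2 WT of 0.32 (standard error 0.08, limma adjusted p = 0.131). Pdia4 was at 5079 and 4797 (empty vector), 6174 and 5586 (ADAR2 WT) and 5027 and 4804 (ADAR2 E396A), and its ADAR2 WT log2 fold change was 0.25 (standard error 0.06, limma adjusted p = 0.128). Pdia3 was at 12241 and 13118 (empty vector), 13471 and 14004 (ADAR2 WT) and 11611 and 13175 (ADAR2 E396A), and its ADAR2 WT log2 fold change was 0.12 (standard error 0.06, limma adjusted p = 0.444). The separation of ADAR2 WT from empty vector was complete for these isomerases but narrow for Pdia3, where the ADAR2 E396A libraries of the donors lay further apart than ADAR2 WT from empty vector.

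The co-chaperones that regulate BiP came next. Dnajb11 (ERdj3), which hands clients to BiP, was at 1740.1 and 2053 in empty-vector cells, 2302 and 2384 in ADAR2 WT cells and 1836 and 1993 in ADAR2 E396A cells, a log2 fold change with ADAR2 WT of 0.31 (standard error 0.07, limma adjusted p = 0.117). Sdf2l1, its partner, was at 1032 and 1127 (empty vector), 1428 and 1225 (ADAR2 WT) and 1111 and 1070.4 (ADAR2 E396A), and its ADAR2 WT log2 fold change was 0.29 (standard error 0.09, limma adjusted p = 0.226). Hyou1 (GRP170), the nucleotide exchange factor of BiP, was at 4377 and 4860.1 (empty vector), 5519 and 5148 (ADAR2 WT) and 4691 and 4469.9 (ADAR2 E396A), and its ADAR2 WT log2 fold change was 0.21 (standard error 0.08, limma adjusted p = 0.279). For these genes too, both ADAR2 WT libraries exceeded both empty-vector libraries, although Hyou1 did so by little in donor B (0.08 against 0.33 in donor A, log2).

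Dnajb9 (ERdj4), a J protein that targets misfolded clients and is known as an XBP1 target, was at 218 and 290.4 in empty-vector cells, 300.3 and 324 in ADAR2 WT cells and 269 and 308 in ADAR2 E396A cells. Its log2 fold change was 0.31 (standard error 0.12, limma adjusted p = 0.311) for ADAR2 WT and 0.20 with ADAR2 E396A, the largest of the arm for the inactive form. Dnajc3 (P58IPK), a J protein of the ER lumen, was at 1603 and 1728 (empty vector), 1827 and 1939 (ADAR2 WT) and 1649 and 1841 (ADAR2 E396A), and its ADAR2 WT log2 fold change was 0.18 (standard error 0.07, limma adjusted p = 0.302). In both genes donor B's ADAR2 E396A library was above donor A's ADAR2 WT library, so the 2 construct groups overlapped.

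The ERAD genes did not share 1 direction. Edem1, a lectin that passes glycoproteins to degradation, was at 9836 and 9858 in empty-vector cells, 8372 and 8743 in ADAR2 WT cells and 7727 and 9361 in ADAR2 E396A cells. All 4 construct libraries were below both empty-vector libraries, with log2 fold changes of -0.20 (standard error 0.08, limma adjusted p = 0.289) and -0.21 (limma adjusted p = 0.999). It was the only member of the arm with a negative estimate for ADAR2 WT, and the difference between the constructs was 0.01 (95% interval -0.17 to 0.18).

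Sel1l and Syvn1 (HRD1), the scaffold and the ubiquitin ligase of the retrotranslocation complex, had log2 fold changes of 0.15 and 0.15 with ADAR2 WT (limma adjusted p = 0.393 and 0.47). Sel1l was at 2888 and 2993 with empty vector and 3126 and 3428 with ADAR2 WT, and Syvn1 at 628 and 746 without and 681 and 845 with it. Herpud1, an adaptor of that complex, was at 899 and 1217 with empty vector and 1040.2 and 1179 with ADAR2 WT, higher in donor A and lower in donor B, with 0.08 (standard error 0.09, limma adjusted p = 0.72). The ADAR2 WT libraries of Syvn1 and Herpud1 overlapped those with empty vector, and those of Sel1l did not.

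**Figure D2:**
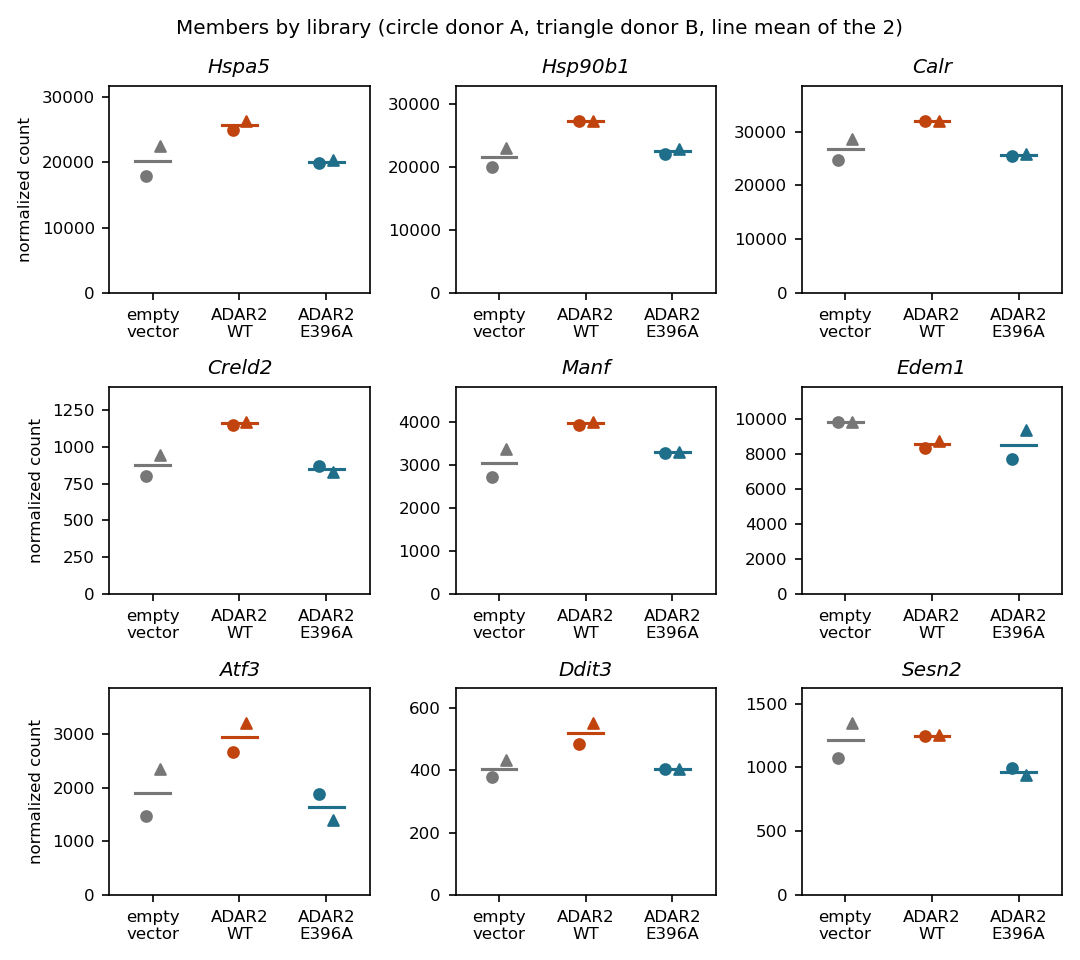
Normalized counts of 9 members in the 6 libraries (circles donor A, triangles donor B, lines the mean of the 2, axes from 0). For Hspa5, Hsp90b1, Calr, Creld2, Manf, Atf3 and Ddit3 both ADAR2 WT libraries are above the other 4, for Edem1 the empty-vector libraries are highest, and for Sesn2 the ADAR2 E396A libraries are lowest.

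The 8 folding and ERAD genes with an ERSE had a median log2 fold change of 0.29 with ADAR2 WT, ranging from 0.15 to 0.41. The 8 matched genes without one had a median of 0.20, ranging from -0.20 to 0.31. These 8 include Herpud1 and Dnajb11, which carried ERSE-II, at 0.08 and 0.31. The ranges of the genes with and without an ERSE overlapped from 0.15 to 0.31. With ADAR2 E396A the medians were 0.01 and 0.00.

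Estimates for the sensors and Xbp1 with ADAR2 WT were near 0 or negative. Atf6 was at 2182 and 1989 in empty-vector cells, 1806 and 1782 in ADAR2 WT cells and 1893 and 2045 in ADAR2 E396A cells, a log2 fold change with ADAR2 WT of -0.22 (standard error 0.08, limma adjusted p = 0.279). Eif2ak3 was at 1729.6 and 1534 (empty vector), 1373 and 1413 (ADAR2 WT) and 1326 and 1688 (ADAR2 E396A), and its ADAR2 WT log2 fold change was -0.23 (standard error 0.11, limma adjusted p = 0.414). Both ADAR2 WT libraries were below both empty-vector libraries for these 2 genes, against 2763 of the 14958 genes tested. The ADAR2 E396A libraries of both genes overlapped the empty vector.

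Ern1 was at 1069.8 and 984 in empty-vector cells, 1046 and 958 in ADAR2 WT cells and 1208 and 947 in ADAR2 E396A cells, a log2 fold change with ADAR2 WT of -0.04 (95% interval -0.24 to 0.17). Xbp1 was at 2905 and 2582 (empty vector), 2833 and 2757 (ADAR2 WT) and 2824 and 2804 (ADAR2 E396A), and its ADAR2 WT log2 fold change was 0.03 (95% interval -0.13 to 0.19). Groups overlapped for both. Counts per gene do not separate spliced from unspliced Xbp1 mRNA, so IRE1 activity was not measured. The median of the 4 genes was -0.13 with ADAR2 WT, -0.02 with ADAR2 E396A and -0.10 between the constructs.

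In the ATF4 arm, 13 of 15 log2 fold changes with ADAR2 WT were positive, with a median of 0.11. The donors did not match: the median was 0.24 in donor A, where 14 genes were higher, and -0.03 in donor B, where 5 were. None of the 15 passed the limma test, the adjusted p ranging from 0.185 to 0.983. At an unadjusted p below 0.05, Atf3 and Ddit3 were higher and Ddit4 was lower, against 6.99% and 7.11% of all genes. Both ADAR2 WT libraries were above both empty-vector libraries for 3 of the 15 (Atf3, Ddit3 and Aldh1l2), a share close to the 18.7% of all genes.

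Atf3, a stress-induced transcription factor, had the largest fold change of all members. It was at 1468 and 2341 in empty-vector cells, 2672 and 3217 in ADAR2 WT cells and 1885 and 1393 in ADAR2 E396A cells. Both ADAR2 WT libraries were above the other 4, and the 2 empty-vector libraries lay far apart. The log2 fold change with ADAR2 WT was 0.66 (standard error 0.20, limma adjusted p = 0.208), with 0.86 in donor A and 0.46 in donor B.

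Ddit3 (CHOP), the transcription factor linked to death under lasting stress, was at 376 and 433 in empty-vector cells, 483 and 553 in ADAR2 WT cells and 404 and 403 in ADAR2 E396A cells. Its log2 fold change with ADAR2 WT was 0.35 (standard error 0.10, limma adjusted p = 0.185), and the donors were nearly equal at 0.36 and 0.35. Ddit4 (REDD1), which restrains mTORC1, was at 3919 and 3627 (empty vector), 3382 and 3033 (ADAR2 WT) and 3368 and 3938 (ADAR2 E396A), and its ADAR2 WT log2 fold change was -0.24 (standard error 0.09, limma adjusted p = 0.315). It was the only ATF4-arm gene lower in both donors with ADAR2 WT.

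Atf4 itself was at 5514 and 6759 in empty-vector cells, 6216 and 6479.6 in ADAR2 WT cells and 6049 and 5798 in ADAR2 E396A cells, and its log2 fold change with ADAR2 WT was 0.06 (95% interval -0.14 to 0.25). The pseudokinase gene Trib3 was at 254 and 425 (empty vector), 381 and 349 (ADAR2 WT) and 322 and 332 (ADAR2 E396A), with log2 fold changes of 0.58 in donor A and -0.29 in donor B. Chac1 was at 83.7 and 111 (empty vector), 111 and 132 (ADAR2 WT) and 111 and 80.5 (ADAR2 E396A), and its ADAR2 WT log2 fold change was 0.32 (standard error 0.23, limma adjusted p = 0.566). For these 3 genes donor B's empty-vector library was as high as 1 or both ADAR2 WT libraries, so the groups overlapped.

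The feedback genes of the response had small estimates with ADAR2 WT. Ppp1r15a (GADD34), which directs removal of the phosphate from eIF2alpha, was at 582 and 685 with empty vector and 651 and 715 with ADAR2 WT, with 0.11 (standard error 0.12, limma adjusted p = 0.714). Sesn2 (sestrin 2), a leucine sensor upstream of mTORC1, was at 1072 and 1351 without and 1243 and 1252 with ADAR2 WT, with 0.05 (standard error 0.11, limma adjusted p = 0.866). Both pairs overlapped.

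Among the genes of amino acid and folate metabolism, Asns, Phgdh, Psat1 and Mthfd2 had small differences that went opposite ways in the donors. Asns (asparagine synthetase) was at 1754 and 2009 in empty-vector cells, 2069.7 and 1944 in ADAR2 WT cells and 1931 and 1593 in ADAR2 E396A cells, 0.24 in donor A and -0.05 in donor B. Phgdh and Psat1, successive enzymes of serine synthesis, had 0.26 and 0.21 in donor A and -0.03 and -0.03 in donor B. Mthfd2, of the mitochondrial folate pathway, had 0.27 and -0.02. All values are log2 fold changes of ADAR2 WT over empty vector, and all of them were positive in donor A and slightly negative in donor B.

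Slc3a2, the shared heavy chain of amino acid exchangers, had log2 fold changes of 0.08 and -0.16 in donors A and B. Slc7a11, its partner in the cystine exchanger, was at 22 and 21.5 in empty-vector cells, 23.4 and 20.9 in ADAR2 WT cells and 28.7 and 15.8 in ADAR2 E396A cells, too few counts to separate any groups (95% interval for ADAR2 WT -0.78 to 0.82). Aldh1l2 was at 65.9 and 73.3 (empty vector), 126 and 76.5 (ADAR2 WT) and 82.1 and 71.8 (ADAR2 E396A). Its log2 fold change of 0.49 (standard error 0.24, limma adjusted p = 0.395) rested on donor A's ADAR2 WT library.

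**Figure D3:**
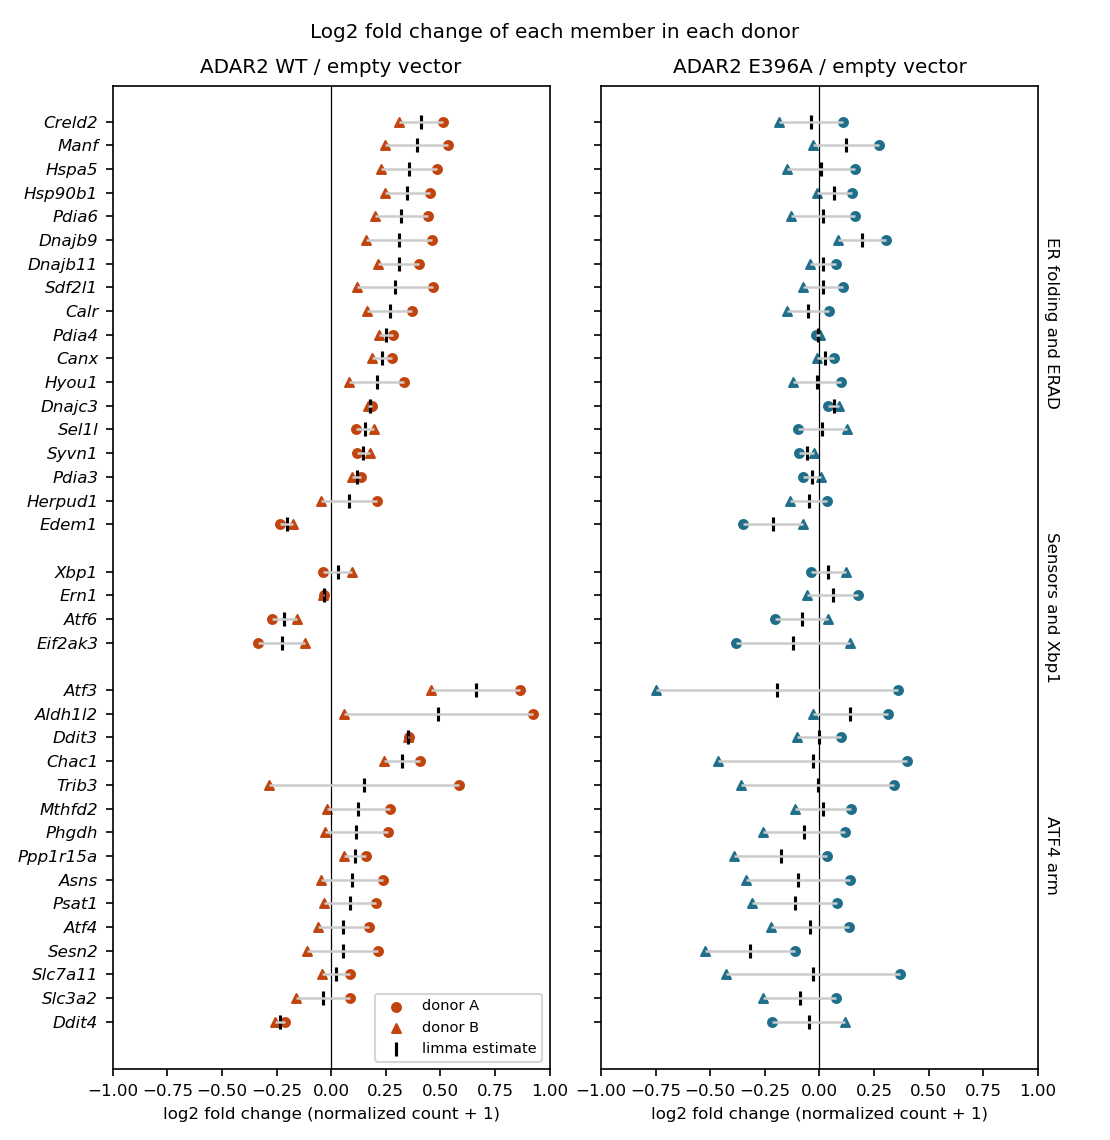
Log2 fold changes over empty vector of each member in donor A (circles) and donor B (triangles), with the limma estimate as a bar, for ADAR2 WT (left) and ADAR2 E396A (right). With ADAR2 WT 16 of 18 folding and ERAD genes lie right of 0 in both donors, whereas with ADAR2 E396A 13 of 15 ATF4-arm genes lie right of 0 in donor A and 1 does in donor B.

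Calls among the members differed between fits. Without the intensity trend in its prior variance, a choice made after the data were seen, limma called 0 genes of any kind in the 3 comparisons (1556, 757 and 1359 at an unadjusted p below 0.05), where edgeR called 127, 2 and 10. Fitted on the 4 libraries of the comparison alone, limma called 14 members for ADAR2 WT, against 8.57% of genes: 11 folding genes and Atf3 and Ddit3 higher, and Ddit4 lower. In the authors' deposited table, DESeq2 gave adjusted p = 6.44e-05 for Atf3, 0.009 for Hsp90b1, 0.0101 for Hspa5 and 0.0282 for Manf, all higher with ADAR2 WT, where 1.75% of genes with an adjusted p passed. DESeq2 refitted to all 6 libraries called Hspa5, Hsp90b1 and Manf, against 1.74% of genes with an adjusted p. With all 6 libraries no member passed in edgeR, nor in limma except Hsp90b1 when low genes were not filtered out (0.726% of genes passed), and without the donor block 2 genes passed in all, none of them a member.

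The result also turned on single libraries. Donor A's empty-vector library was the lowest of the 6 for 11 of 18 folding and ERAD genes (61.1%), against 18.9% of all genes. Without it the folding median was 0.19 and the ATF4 median -0.07, with 4 of 15 genes positive, and no member passed. Without donor B's empty-vector library the medians were 0.35 and 0.26, and 11 members passed, with 5.80% of all genes. Leaving out the ADAR2 E396A library of either donor, A or B, which is in neither group compared, gave 10 and 13 passing members, with 5.99% and 7.72% of all genes. Leaving out an ADAR2 WT library gave none.

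**Figure D4:**
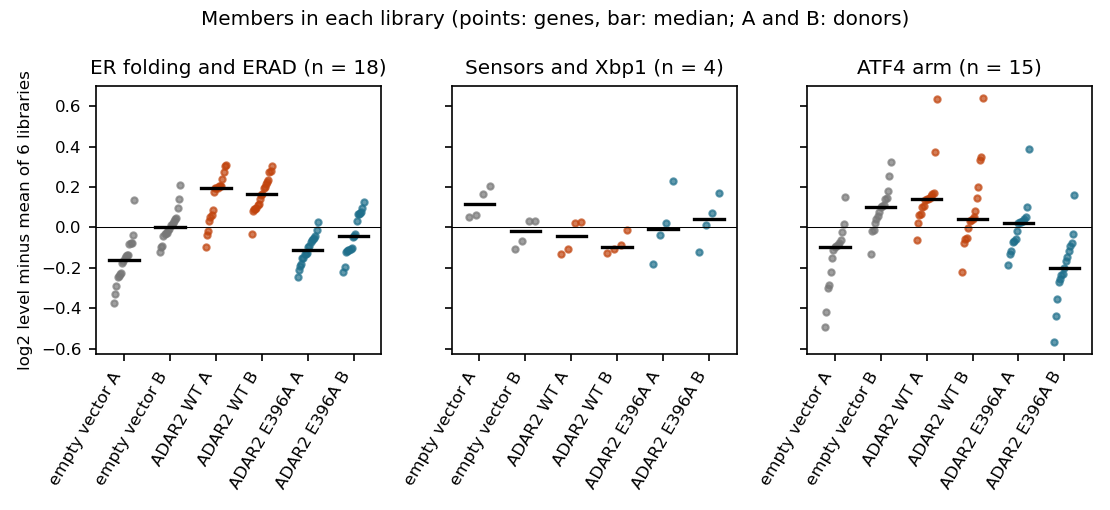
Log2 level of each member in each library minus its mean over the 6 libraries, by arm, with the median as a bar (A and B are the donors). In the folding and ERAD arm both ADAR2 WT medians (0.19 and 0.16) are above the other 4, while in the ATF4 arm the lowest median is that of ADAR2 E396A in donor B (-0.20).

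ADAR2 E396A was compared with the same empty-vector libraries to see which transcripts differed with the inactive protein. The folding and ERAD genes had a median log2 fold change of 0.01, with 10 of 18 positive, and 0.07 and -0.04 in the donors. Without donor A's empty-vector library the median was -0.04, with 3 of 18 positive. Without that of donor B it was 0.08, with 14 of 18 positive. No member of any arm passed the limma test, all with an adjusted p of 0.999, where 0.0134% of all genes passed. Among the folding and ERAD genes 0 were higher at an unadjusted p below 0.05, against 2.11% of all genes, and 0 had both libraries above the empty vector, against 11.5%. In the authors' deposited table no member passed either, among 0.00693% of genes that did.

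Intervals were computed for the leading chaperones. The log2 fold change of Hspa5 was 0.01 (95% interval -0.18 to 0.19), that of Hsp90b1 0.07 (-0.09 to 0.23) and that of Creld2 -0.04 (-0.25 to 0.17). Manf had 0.12 (-0.07 to 0.32). Each of these intervals spans 0, so small differences in either direction remain possible with 2 libraries per group.

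The ATF4 arm with ADAR2 E396A had a median of -0.05 with 2 of 15 positive, and the donors were opposed: 0.13 in donor A, with 13 genes higher, and -0.31 in donor B, with 1 gene higher. Atf3 was 0.36 in donor A and -0.75 in donor B. Sesn2 was lower in both, at 993 and 938 against 1072 and 1351 with empty vector, a log2 fold change of -0.32 (standard error 0.11, limma adjusted p = 0.999). It was the only ATF4-arm gene with both ADAR2 E396A libraries below both empty-vector libraries, against 11.9% of all genes. Without donor A's ADAR2 E396A library, Atf3 passed as lower, with 0.808% of all genes.

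The donors already differed without an ADAR2 construct. In the empty-vector libraries, 16 of 18 folding and ERAD genes were higher in donor B, by a median of 0.18 on the log2 scale, as were 13 of 15 ATF4-arm genes, by 0.20. The median over all genes was 0.00. With ADAR2 E396A the ATF4 arm was the other way round, 2 of 15 genes being higher in donor B, with a median of -0.20. For comparison, the medians for ADAR2 WT against empty vector were 0.26 and 0.11.

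ADAR2 WT was also compared directly with ADAR2 E396A, a contrast whose estimate uses no empty-vector library but that shares the ADAR2 WT libraries with the first. All 18 folding and ERAD genes had a positive difference (17 with TMM or nuclear-gene scaling, where Edem1 was just below 0), with a median of 0.24, and 0.25 and 0.20 in the donors. None passed (lowest limma adjusted p 0.136; 0.0669% of all genes passed). At an unadjusted p below 0.05, 13 were higher, against 6.43% of all genes, and 12 had both ADAR2 WT libraries above both ADAR2 E396A libraries, against 19.4%.

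Creld2 had the largest difference of the folding arm, 0.45 (standard error 0.09, limma adjusted p = 0.136). Hspa5 differed by 0.35 (standard error 0.08, limma adjusted p = 0.172), Calr by 0.32 (standard error 0.07, limma adjusted p = 0.161) and Pdia6 by 0.31 (standard error 0.08, limma adjusted p = 0.201). For each of these genes the donors gave similar sizes, for example 0.33 and 0.32 for Calr. Edem1, at the other end, differed by 0.01, and Dnajb9 by 0.12 with its groups overlapping.

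The ATF4 arm was higher with ADAR2 WT than with ADAR2 E396A for 14 of 15 genes, with a median of 0.19, and 0.12 and 0.27 in the donors. Both ADAR2 WT libraries were above both ADAR2 E396A libraries for 10 of them, against 19.4% of all genes. Atf3 differed by 0.86 (standard error 0.20, limma adjusted p = 0.174), Sesn2 by 0.37 (standard error 0.11, limma adjusted p = 0.228), Ddit3 by 0.35 (standard error 0.10, limma adjusted p = 0.237) and Ppp1r15a by 0.29 (standard error 0.12, limma adjusted p = 0.363). Ddit4 was the exception, at -0.19. Leaving out donor B's ADAR2 E396A library left a median of 0.05, with 10 of 15 positive, and leaving out that of donor A gave 0.33. In this contrast DESeq2 called Hspa5 and Calr, against 0.921% of genes with an adjusted p, and limma on the 4 libraries alone called 6 members, Hspa5, Hsp90b1, Calr, Creld2, Pdia6 and Atf3, against 1.33% of genes.

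Cell content was checked through marker genes. The summed count of the 6 T cell markers was 48942 and 38577 for empty vector, 41408 and 37213 for ADAR2 WT, and 43511 and 42673 for ADAR2 E396A. The empty-vector libraries overlapped both other groups, while both ADAR2 E396A sums were above both ADAR2 WT sums, and ADAR2 WT was below empty vector in each donor. The summed count of the 6 myeloid markers was 1208 and 1084 for empty vector and 1195 and 1072 for ADAR2 WT and 1016 and 1245 for ADAR2 E396A, most of it from Cst3 (968 to 1179), with Lyz2, Itgam, Adgre1 and Csf1r at 0 to 7.32. Of the B and plasma cell markers, Sdc1 was at 253 to 484, highest in donor B's ADAR2 E396A library, Cd79a at 6.82 to 39.6 and Cd79b at 15.8 to 24.4, while Ms4a1 and Mzb1 were at 0 in every library. Whether cell content had a part in the differences of the folding genes was not tested.

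Other genes of the same pathways were taken from further lists. Of 39 further ER genes (translocation, glycoprotein quality control, oxidation and ERAD), 38 were tested and none passed in any comparison. With ADAR2 WT 28 were positive, with a median of 0.06. P4hb, a disulfide isomerase, was at 10149 and 10935 in empty-vector cells, 12684 and 12930.2 in ADAR2 WT cells and 10643 and 10873 in ADAR2 E396A cells, with 0.28 (standard error 0.06, limma adjusted p = 0.0902). The selenoprotein genes Selenok and Selenos, both of ERAD, had 0.33 and 0.35, and the translocon-associated Ssr2 had 0.35 (limma adjusted p = 0.0862, 0.142 and 0.161). Of the 38 genes, 12 had both ADAR2 WT libraries above both empty-vector libraries, these 4 among them, against 18.7% of all genes. Selenok, P4hb and Ssr2 also had the lowest p of the list between the constructs. Against empty vector, those of lowest p for ADAR2 E396A were Derl1 and Os9, with -0.16 and 0.16, and Sec61g with -0.13.

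Of 41 further genes of the integrated stress response, 39 were tested and 2 passed with ADAR2 WT, both higher, against 0.816% of all genes. Eif2ak2, which encodes PKR, the eIF2alpha kinase that binds double-stranded RNA and is itself interferon-induced, was at 1748 and 2162 in empty-vector cells, 2217 and 3334 in ADAR2 WT cells and 1861 and 2793 in ADAR2 E396A cells. It rose with ADAR2 WT by 0.48 in log2 units (standard error 0.09, limma adjusted p = 0.0492), by 0.34 in donor A and 0.62 in donor B. With ADAR2 E396A its log2 fold change was 0.23 (limma adjusted p = 0.999), with 0.09 in donor A and 0.37 in donor B. Donor B was higher than donor A in every group, and donor B's ADAR2 E396A library was above donor A's ADAR2 WT library. The call was lost without the donor block (limma adjusted p = 0.798), without the intensity trend (limma adjusted p = 0.417), without either ADAR2 WT library, and with a filter at a mean of 50 counts (limma adjusted p = 0.0656).

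Vldlr, a lipoprotein receptor gene induced through PERK and ATF4, was at 522 and 512 in empty-vector cells, 760.4 and 792 in ADAR2 WT cells and 624 and 613 in ADAR2 E396A cells. It rose by 0.59 with ADAR2 WT (standard error 0.09, limma adjusted p = 0.0351), and the call was lost without the donor block (limma adjusted p = 0.416), without the intensity trend (limma adjusted p = 0.343), without donor A's empty-vector library (limma adjusted p = 0.061) and without either ADAR2 WT library. The groups did not overlap, with ADAR2 E396A in between, at a log2 fold change over empty vector of 0.26 (limma adjusted p = 0.999). The heme-regulated eIF2alpha kinase gene Eif2ak1 had -0.03 with ADAR2 WT, and the serine pathway gene Psph 0.12. Cbs, of cysteine synthesis, was at only 12.5 and 7.82 (empty vector), 6.82 and 1.16 (ADAR2 WT) and 21.8 and 17.5 (ADAR2 E396A). Over the 39 genes the median with ADAR2 WT was 0.08, with 27 positive, and with ADAR2 E396A it was -0.02.

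**Figure D5:**
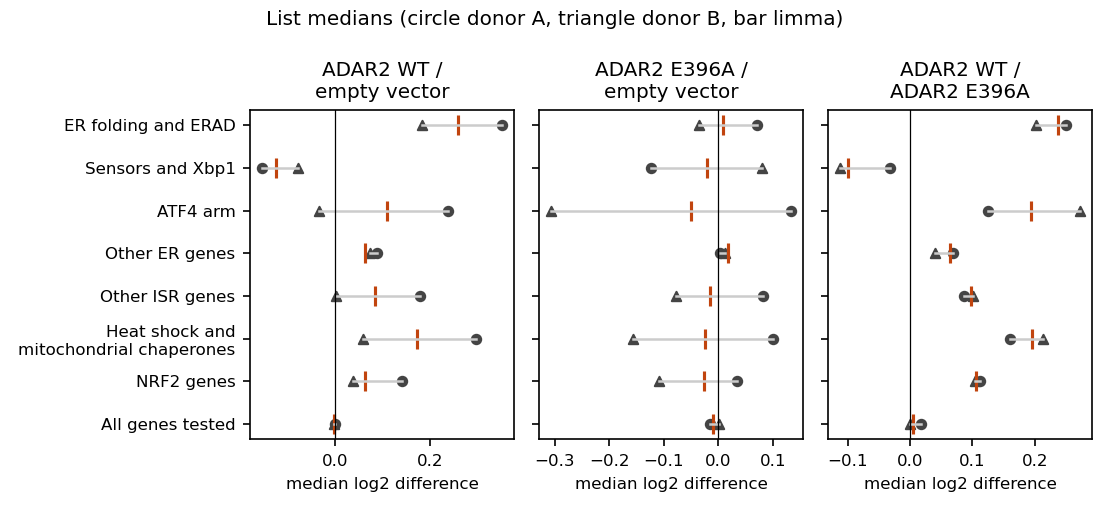
Median log2 difference of each gene list in the 3 comparisons (bars limma, circles donor A, triangles donor B), beside all genes tested. The folding and ERAD list has the highest median with ADAR2 WT against empty vector (0.26) and between the constructs (0.24), and lies at 0.01 with ADAR2 E396A.

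Pearson correlation compared how genes varied across the 6 libraries, not how high they were, among 10775 whose mean reached 50 normalized counts. The genes that varied most like Hspa5 were Aim2 (Pearson r = 0.999), Btla (0.999) and Nars (0.996). Those most like Asns were Mrto4 (0.996), Dad1 (0.993) and Trat1 (0.990). These coefficients describe 6 points that share donors and groups, and no test was made of them.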

How the data were processed

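The authors deposited 1 table per construct, each comparing it with empty vector. Per the file headers, these hold DESeq2 means and normalized counts (a signal), log2 fold changes and their errors, a Wald statistic (a score) and p-values. Positive deposited fold changes mean higher in empty vector, and signs are turned round here. Per the submitters' processing notes, the tools were STAR 2.6.1a, featureCounts and DESeq2 1.18.1, with mm10. Settings, strand mode and gene models: not given in the sources used here. Symbols and exon lengths are from GENCODE vM21.

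The deposited values were whole reads divided by 1 factor per library, so reads were recovered (100% of values whole within 0.001 of a read). After scaling by median-of-ratios factors over the 6 libraries and edgeR's filterByExpr, limma 3.58.1 in R 4.3.3 was run on log2(normalized count + 1), modelling group and donor. Library columns carry no replicate label. Columns found in both tables can only be the shared control, empty vector, and the rest were assigned to the construct named by their table. The labels state 2 donor mice and comparison within a donor. The pairing of libraries was the one that returned the authors' deposited Wald statistics (largest difference 0 and 0.0001, against 13.8 and 6.08 with donors crossed).

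The design foresaw limma without an intensity trend in the prior variance. The trend was added after the fit without it found none of the changed genes in simulated counts, and with its result on the data in view: it called 0 genes in all 3 comparisons. The counts obtained with the trend equal those already known from earlier work on these data.

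Members and lists were chosen with earlier results of these data known. The genes named are all 37 members, Adarb1, Eif2ak2, the passing genes of 4 other lists and otherwise up to 3 genes of lowest p per comparison, the 3 genes most like Hspa5 and Asns, and cell markers. The summed level of the B and plasma cell markers is not reported here. The 4 promoters printed were chosen after their motifs were seen. The 18 alternatives included edgeR 4.0.16, DESeq2 1.42.0, other scalings, filters and pseudocounts, no block, and each library left out.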

Additional observations from a re-analysis of the deposited data

How the results depend on the processing

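With 2 libraries per group, the number of genes passing depended on the fit. The folding and ERAD median was positive for ADAR2 WT, against empty vector and against ADAR2 E396A, under every alternative run. Changing the donor block, the filter or the intensity trend cannot move these medians (0.259 and 0.238), so those fits do not bear on the sign. The medians with a library left out are given below. For ADAR2 WT against empty vector, ADAR2 E396A against empty vector and ADAR2 WT against ADAR2 E396A, in that order, 122, 2 and 10 genes passed. Without the replicate block for donors the counts were 2, 1 and 0 (947, 197 and 732 genes at an unadjusted p below 0.05), and no member passed. DESeq2 gave 210, 7 and 111 genes, no filter on low counts gave 220, 5 and 102, and a mean of at least 50 counts gave 58 and 3 for the first and last comparison. Without the intensity trend, an alternative added after the data were seen, limma gave 0, 0 and 0 (1556, 757 and 1359 at an unadjusted p below 0.05), against 127, 2 and 10 with edgeR. The 4 libraries of each comparison alone gave 1237, 1 and 194. Leaving out each library in turn gave 1 to 1217, 1 to 127 and 0 to 846 genes. Each such fit has only 1 residual degree of freedom, and the cause of these shifts was not tested.

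Leave-one-out medians of the folding and ERAD arm ranged from 0.19 to 0.35 for ADAR2 WT against empty vector and from 0.19 to 0.29 between the constructs. The sensor medians ranged from -0.172 to -0.0687 and from -0.142 to -0.00492, and the ATF4 medians from -0.072 to 0.263 and from 0.0492 to 0.334. For ADAR2 E396A against empty vector, the folding and ERAD medians ranged from -0.0442 to 0.0798 and the ATF4 medians from -0.261 to 0.0981. Other scalings shifted the median of all genes by less than 0.02 on the log2 scale. With TMM or nuclear-gene factors Edem1 turned negative between the constructs, which left 17 of 18 folding genes positive. No gene named here that passed in the main fit changed sign in that comparison under any alternative run. Atf3 with ADAR2 E396A against empty vector, which did not pass in the main fit, ranged from -0.647 to 0.263 on the log2 scale.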

Other observations

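Cytosolic and mitochondrial chaperone genes were measured as a neighbouring response that the HSF1 factor controls in part. Of 16 genes tested, 14 were positive with ADAR2 WT against empty vector, with a median log2 fold change of 0.17, and with 0.30 in donor A and 0.06 in donor B. Dnaja1, an HSP70 co-chaperone of the cytosol, was at 2588 and 3390.3 normalized counts in empty-vector cells, 3553 and 4327 in ADAR2 WT cells and 2664 and 3178 in ADAR2 E396A cells. It rose with ADAR2 WT by 0.40 in log2 units (standard error 0.07, limma adjusted p = 0.0416). It was the only gene of the 16 to pass, against 0.816% of all genes. The call was lost without the donor block (limma adjusted p = 0.778), without the intensity trend (limma adjusted p = 0.405) and with a filter at a mean of 50 counts. It was also lost without donor A's empty-vector library or either ADAR2 WT library. The inducible HSP70 genes Hspa1a and Hspa1b, near-identical copies whose reads the counting could split, were at 134 and 195 and at 369 and 517 with empty vector and at 264 and 282 and 655 and 723 with ADAR2 WT. Their log2 fold changes were 0.75 and 0.65 (limma adjusted p = 0.0898 and 0.109), and for both genes the ADAR2 WT libraries were above the other 4. Hsph1 (HSP110) had 0.39 (limma adjusted p = 0.111), Dnajb1 0.13 and the co-chaperone gene Bag3 -0.02. With ADAR2 E396A the median of the 16 genes was -0.02. Between the constructs, 15 of the 16 were higher with ADAR2 WT, with a median of 0.20. For 11 of them both ADAR2 WT libraries were above both ADAR2 E396A libraries, against 19.4% of all genes. Donor A's empty-vector library was the lowest of the 6 for 9 of the 16 (56.2%), against 18.9% of all genes. Without that library the log2 fold change of Dnaja1 with ADAR2 WT was 0.34. Whether the library had a part in the difference of the list was not tested.

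Of 12 genes of the oxidative stress response under NRF2, none passed in any comparison. All 12 were positive with ADAR2 WT against empty vector, by a median of only 0.06, and the largest single log2 fold change was 0.25. All 12 were also higher with ADAR2 WT than with ADAR2 E396A, by a median of 0.11. Against empty vector with ADAR2 WT, single genes were as follows. Pgd and G6pdx, of the pentose phosphate pathway, had 0.14 and 0.07, Prdx1 (a peroxiredoxin) 0.14, Gsr (glutathione reductase) 0.05 and Nfe2l2 itself 0.14.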
